A study of Rattus norvegicus with 939 samples.

Results

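The 8 genes described here, Hao1, Qprt, Maob, Car14, Gna14, Tm4sf4, Nrep and Kif12, were picked by name as liver genes that most of the compounds in a screen of cultured rat hepatocytes lowered, 8 of the 14218 genes that the array measured. Each gene was read from its probe set with the highest mean, and each compound was set against the vehicle cultures whose description names it. Some descriptions name TGF Beta or MLN with running numbers, and these were read as controls of TGF Beta-1 and Mln-518. Because the genes were chosen from the changes in this screen, their values in it are given as a description. Tests were kept for a repeat of chlorpromazine and a dose series, run on other arrays, and for the difference between exposure times and the vehicle cultures alone. The last 2 come from the same arrays as the screens, although the choice rested on treated against vehicle cultures and not on these contrasts.

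The series profiled polyadenylated RNA of primary rat hepatocytes on Affymetrix arrays, with 826 arrays of treated cultures and 113 arrays of vehicle cultures, to collect the transcriptional response to drugs and toxicants. In the screens, 125 compounds, 1 of them the recombinant protein TGF Beta-1, were tested at 1 dose each for 1 d and for 0.67 d, on 766 treated arrays and 104 vehicle arrays, and 3 compounds were also tested at a lower dose. The chlorpromazine repeat held 6 arrays at 43.9 µM and 6 vehicle arrays, all at 1 d. The dose series held 54 treated arrays, with 3 doses each of 6 compounds, and 3 vehicle arrays, all at 1 d. All cultures received DMSO, the vehicle, with or without a compound, though the titles of some vehicle arrays do not name it. The labels name no strain, age or donor animal, and arrays were told apart by their replicate number and culture date.

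Freshly isolated hepatocytes lose many of their specialised functions in culture, and the genes for those functions depend on liver-enriched transcription factors such as the HNF, FOXA and C/EBP families. The 8 genes belong to unrelated pathways. Hao1 encodes the peroxisomal enzyme that oxidises glycolate to glyoxylate, Qprt the enzyme that makes nicotinic acid mononucleotide on the route from tryptophan to NAD, Maob the mitochondrial outer membrane oxidase of monoamines, and Car14 a membrane-bound carbonic anhydrase. Gna14 encodes an alpha subunit of the Gq family, which couples receptors to phospholipase C beta, Tm4sf4 a membrane protein of the L6 family found in liver and intestine, Nrep a small intracellular protein known for its link to TGF beta in wound fibroblasts, and Kif12 a kinesin motor linked to cholestasis in people.

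The starts of 4 of the genes are shown because 3 of them hold the matches to motifs of liver factors and the fourth, Maob, is rich in G and C. Each window is read from RefSeq (rat build GRCr8) on the gene's own strand and runs from 250 bases before the transcription start to 50 bases after it. They lie at chr1:223141552-223141851 (plus strand, Gna14), chr2:143755811-143756110 (plus strand, Tm4sf4), chr3:142281445-142281744 (minus strand, Hao1) and chrX:8490155-8490454 (plus strand, Maob). The Tm4sf4 window lies inside the span of that gene (chr2:143720220-143771283), so it is not at the gene's outermost start. The Kif12 window, which is not shown, also lies inside the span of its gene. Capitals mark a match to 1 of the motifs searched.
Gna14: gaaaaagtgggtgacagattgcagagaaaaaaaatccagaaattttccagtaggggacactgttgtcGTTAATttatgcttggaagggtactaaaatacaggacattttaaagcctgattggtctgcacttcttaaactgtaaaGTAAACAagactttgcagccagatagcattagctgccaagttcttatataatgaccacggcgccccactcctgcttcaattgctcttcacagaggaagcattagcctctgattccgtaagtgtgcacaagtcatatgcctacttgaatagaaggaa
Tm4sf4: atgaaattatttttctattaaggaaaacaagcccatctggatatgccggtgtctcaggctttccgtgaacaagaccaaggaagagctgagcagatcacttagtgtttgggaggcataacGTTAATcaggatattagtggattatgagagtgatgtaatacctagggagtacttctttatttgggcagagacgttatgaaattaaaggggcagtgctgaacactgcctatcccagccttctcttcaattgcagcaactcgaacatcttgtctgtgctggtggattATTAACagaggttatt
Hao1: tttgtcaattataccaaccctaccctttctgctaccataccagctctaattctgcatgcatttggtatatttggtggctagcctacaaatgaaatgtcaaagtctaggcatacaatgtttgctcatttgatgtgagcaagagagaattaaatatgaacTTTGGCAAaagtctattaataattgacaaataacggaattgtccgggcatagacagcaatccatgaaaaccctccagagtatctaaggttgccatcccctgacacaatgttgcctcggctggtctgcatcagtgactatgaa
Maob: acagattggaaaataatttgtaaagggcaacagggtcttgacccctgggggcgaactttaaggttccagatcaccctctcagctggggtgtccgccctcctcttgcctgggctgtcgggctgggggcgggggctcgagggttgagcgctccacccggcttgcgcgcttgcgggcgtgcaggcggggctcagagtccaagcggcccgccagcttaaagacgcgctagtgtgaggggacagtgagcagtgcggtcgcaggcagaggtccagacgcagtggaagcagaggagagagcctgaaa
All 8 genes matched an entry of the table. The HNF1 motif GTTAAT was found, on either strand, in Gna14 and in 2 places in Tm4sf4, and in 7.45% of the 33469 promoters of the same length. The FOXA motif TGTTTAC was found in Gna14 alone among the 8 and in 3.78% of all promoters, and the C/EBP motif TTGCNNAA in Hao1 alone and in 10.6% of all. The TATA motif TATAAA was found in Kif12 alone, again counting both strands, and in 14.2% of all promoters. Neither the HNF4 motif CAAAGTCCA nor the DR1 repeat of nuclear receptors was found in any of the 8, and they were found in 0.391% and 0.0538% of all promoters. The share of G and C ran from 40.3% in Hao1, 41.0% in Gna14 and 41.7% in Tm4sf4 to 63.0% in Maob and 68.0% in Nrep, with a median of 51.7% over all promoters. The Maob window held 19 CpG and the Nrep window 30, where the median promoter held 7. The 8 genes did not share a motif or a base composition in these windows.

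The median log2 level of an array lay between 5.41 and 5.73 in the deposited values, which were already normalized, so it is no separate check of scale. Of the hepatocyte markers, albumin (Alb) had a vehicle median of 14.35 and was lowered by 0 of 125 compounds, whereas Cps1, the first enzyme of the urea cycle, was lowered by 75. The median marker of cholangiocytes was lowered by 0 compounds, that of stellate cells and fibroblasts by 2.5, that of endothelial cells by 3 and that of Kupffer cells by 4.5. Many of these markers were low in vehicle cultures, with medians of 3.92 for Krt19, 4.44 for Vwf and 3.20 for Adgre1, where a fall could hardly be seen. Others, such as Epcam (8.67) and Cd68 (10.42), were not low. Single markers of those lists were lowered more often, with Kdr in 53 compounds, Reln in 52 and Lyve1 in 36, and their part in the results was not tested. On such bulk arrays, fewer cells of a type and less RNA per cell cannot be told apart.

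Some arrays went against their labels. In the dose series, the replicate 2 arrays labelled methapyrilene at 300 and 500 µM had the 8 genes at vehicle levels, and those labelled allyl alcohol at 20 and 30 µM had them low. Over the 14210 other genes, the array labelled allyl alcohol at 30 µM correlated at 0.885 with methapyrilene replicates 1 and 3, whereas the array labelled methapyrilene at 500 µM correlated at 0.0527 with them. The replicate 2 array labelled methapyrilene at 100 µM correlated at 0.908 with them. The SD of its changes over those genes was 0.685, against 0.389 and 0.306 on replicates 1 and 3 at that dose, so its dose label is also in doubt. In the main screen, 1 array labelled clofibrate at 0.67 d correlated at 0.851 with the other gemfibrozil arrays and at 0.0683 with the other clofibrate arrays. The array labelled gemfibrozil, replicate 1 at 1 d, hybridized on the same day, correlated at 0.032 with the other gemfibrozil arrays. Nrep was at 4.65 on the first of these arrays and at 9.75 on the second. Results that rest on these arrays are given with and without them, a choice made after seeing the data.

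Across the screens, each of the 8 genes was lowered by 78 to 88 of the 125 compounds, where lowered means an adjusted p of at most 0.01 over all genes and a level at least 1.5-fold lower in treated than in vehicle cultures. Of the 1000 pairs of gene and compound, 669 (66.9%) were called lower and 2 called higher. Over all 14218 genes, 4.97% of the pairs were called lower and 3.73% higher, and the median gene was lowered by 0 compounds. Treated and vehicle ranges were apart in 431 of the 669 pairs called lower, and in 65.4% of such pairs over all genes. The count of the 8 genes reflects how they were chosen. Outside the 8, Mbl2 and Mylk were also lowered by 85 compounds, Slc25a23 and Kynu by 77, and 39 genes in all were lowered by 78 or more.

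**Figure D1:**
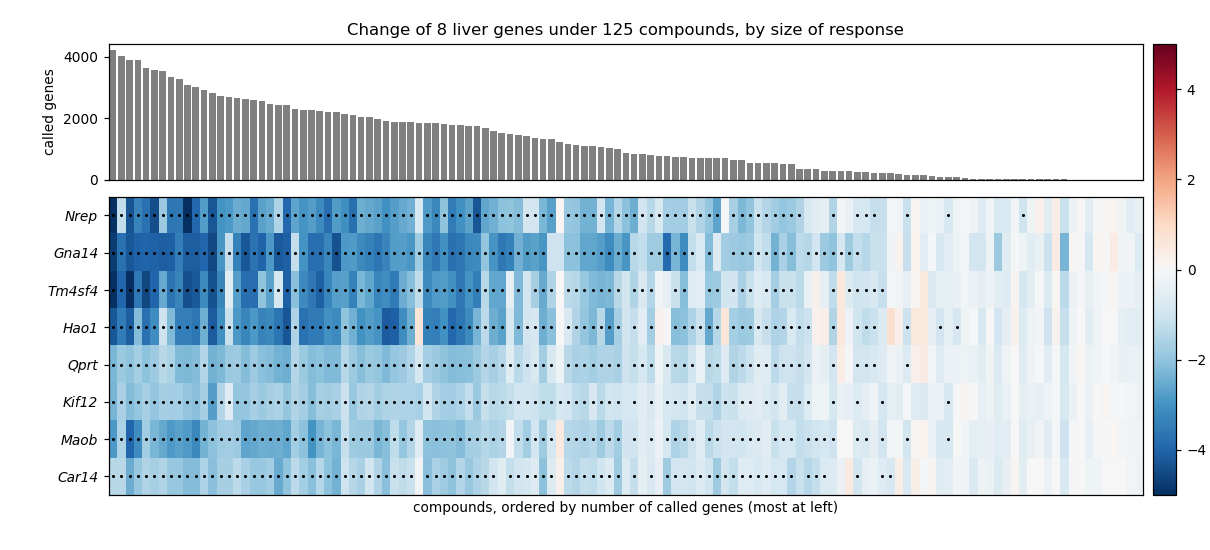
Log2 change of each of the 8 genes (rows) in each of the 125 compounds of the screens (columns, ordered by how many of the 14218 genes the compound changed, shown by the bars), treated minus vehicle; dots mark values called lower. The rows are similar to each other, with 66 compounds lowering all 8 genes, and the dots stop towards the compounds with few changed genes.

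Of the enzymes, Hao1 was lowered by 84 compounds and changed by a mean of -1.65 ± 1.37 on the log2 scale (SD, n = 125 compounds). Under nimesulide, an anti-inflammatory drug, the lowest, median and highest log2 levels of Hao1 were 5.37, 5.85 and 6.52 on 6 treated arrays, against 9.50, 10.13 and 10.63 on 8 vehicle arrays, a change of -4.26 ± 0.18 (SE) and a 19.2-fold lower level. The ranges were apart there, as they were in 63 of the 84 compounds in all. Hao1 was the 1 gene of the 8 that any compound raised. Etoposide and idarubicin, both inhibitors of topoisomerase, gave changes of 0.80 ± 0.18 and 0.63 ± 0.16, with treated levels that overlapped those of vehicle cultures. Doxorubicin, a further topoisomerase inhibitor chosen after its values were seen, gave 0.54 ± 0.07, which is under the 1.5-fold bound.

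Qprt was lowered by 85 compounds, with a mean change of -1.17 ± 0.75 (SD). Its largest fall was also under nimesulide, where the lowest, median and highest log2 levels were 7.18, 7.44 and 7.64 on treated arrays, against 9.30, 9.88 and 10.31 on vehicle arrays, a change of -2.46 ± 0.12 (SE). Zidovudine at 14800 µM and amineptine gave -2.38 ± 0.11 and -2.35 ± 0.12. At the other end were doxorubicin (0.24 ± 0.14), fenofibrate (0.38 ± 0.10) and chlorambucil (0.40 ± 0.23), none of which was called. Qprt had a narrower spread over compounds than Hao1 and no compound that raised it.

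Maob was lowered by 83 compounds, with a mean change of -1.25 ± 0.90 (SD). Vinblastine, which blocks microtubule assembly, lowered it most, with log2 levels of 4.54, 5.84 and 7.02 (lowest, median and highest of 6 treated arrays), against 8.98, 9.76 and 10.44 on 16 vehicle arrays, a change of -3.97 ± 0.25 (SE). Isotretinoin (-3.21 ± 0.13) and lomustine (-3.10 ± 0.17) followed. Valproic acid had the highest value, 0.49 ± 0.14, with treated levels from 9.80 to 10.64 and vehicle levels from 9.02 to 10.43. The treated and vehicle ranges of Maob were apart in 46 of its 83 compounds.

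Car14 was lowered by 83 compounds, with a mean change of -1.02 ± 0.71 (SD), the smallest mean among the 8. Under zidovudine its lowest, median and highest log2 levels were 5.60, 5.79 and 6.08 on treated arrays, against 7.41, 8.44 and 9.36 on 34 vehicle arrays, a change of -2.52 ± 0.15 (SE). Vinblastine and the kinase inhibitor Mln-518 came next, with -2.47 ± 0.19 and -2.38 ± 0.28. Ethanol had the highest value, 0.43 ± 0.14, and its treated levels (7.93 to 9.22) overlapped those of vehicle cultures (7.48 to 8.59).

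Gna14, the signalling subunit, was lowered by 84 compounds and had the largest mean change of the 8, -2.13 ± 1.39 (SD), and a median change that was a 4.21-fold lower level. Under pantoprazole, an inhibitor of the gastric proton pump, its lowest, median and highest log2 levels were 3.94, 4.17 and 4.30 on 6 treated arrays, against 7.90, 8.92 and 9.71 on 8 vehicle arrays, a change of -4.74 ± 0.22 (SE). Amineptine (-4.50 ± 0.14) and Mln-518 (-4.37 ± 0.21) followed, with no overlap of arrays in either. The highest values, 0.42 ± 0.34 under both kanamycin and pemoline, were not called. Gna14 also spread widely among vehicle arrays, with levels from 6.36 to 9.52 on the 24 vehicle arrays of pemoline, and its treated and vehicle ranges were apart in 50 of its 84 compounds.

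Tm4sf4 was lowered by the fewest compounds, 78, with a mean change of -1.71 ± 1.41 (SD) and a median of -1.36. Pantoprazole lowered it most, with log2 levels of 5.05, 6.20 and 8.12 (lowest, median and highest), against 11.29, 12.27 and 12.66 on vehicle arrays, a change of -5.73 ± 0.40 (SE) and a 53.2-fold lower level. Vinblastine (-5.36 ± 0.26) and valdecoxib (-4.55 ± 0.22) came next. Fenofibrate and chlorambucil gave 0.53 ± 0.12 and 0.53 ± 0.37, under the bound or within the error. The lowest vehicle array of the chlorambucil controls, at 9.37, lay well under their median of 11.84.

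Nrep was lowered by the most compounds, 88, and its mean change was -1.79 ± 1.31 (SD). The 3 largest falls were under 2 proton pump inhibitors and ifosfamide. Under pantoprazole its log2 levels were 3.33, 3.55 and 3.90 on treated arrays, against 8.73, 9.31 and 9.88 on vehicle arrays, a change of -5.75 ± 0.15 (SE) and a 53.7-fold lower level. Lansoprazole gave -5.08 ± 0.19 and ifosfamide -4.42 ± 0.26, with every treated array below every vehicle array. Kanamycin, an antibiotic, gave the highest value, 0.33 ± 0.20, and was not called. Nrep had the most compounds with no overlap between treated and vehicle arrays, 66 of its 88.

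Kif12 was lowered by 84 compounds, with a mean change of -1.03 ± 0.64 (SD), and was below its vehicle level in 122 of the 125, the most of the 8. Amineptine lowered it most, with log2 levels of 4.96, 5.21 and 5.35 on treated arrays, against 7.64, 7.92 and 8.25 on 6 vehicle arrays, a change of -2.75 ± 0.11 (SE). Pantoprazole (-2.32 ± 0.14) and vinblastine (-2.17 ± 0.11) followed. The 3 compounds at or above the vehicle level, antimycin A, gabapentin and carbon tetrachloride, gave changes of 0.03, 0.13 and 0.18.

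Falls were shared between the genes within a compound. All 8 genes were lowered by 66 compounds and none by 25, and 34 compounds lowered 1 to 7 of them. Of those 34 compounds, Nrep was lowered by 22 and Tm4sf4 by 12, with the other 6 genes lowered by 17 to 19. In 101 compounds all 8 values were below zero.

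The shared fall followed how many genes a compound changed at all. Of the 95 compounds that changed over 200 genes, 66 lowered all 8 and 0 lowered none, whereas of the 30 that changed up to 200 genes, 0 lowered all 8 and 25 lowered none. With compounds ordered by changed genes and split into 4 parts, the genes were lowered by 31 or 32 of the 32 compounds with most changed genes (4208 to 2029), and by 0 to 3 of the 31 with fewest (212 to 0). The median change of Gna14 was -3.90, -2.90, -1.64 and -0.25 in the 4 parts from most to fewest changed genes, and that of Car14 -1.67, -1.27, -0.86 and -0.17. Pearson's r between a gene's change and the log10 number of changed genes ran from -0.784 for Kif12 to -0.639 for Hao1 (125 compounds, which share vehicle arrays and whose number of changed genes counts the 8 genes too). The compound with fewest changed genes that lowered all 8 was griseofulvin, with 238.

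Several compounds that changed many genes left some of the 8 in place. Among the 30 compounds with most changed genes, sporidesmin A, a fungal toxin, was the 1 exception, with 2700 changed genes and Tm4sf4 at -0.57 ± 0.18. Of the 77 compounds with over 600 changed genes, 15 lowered fewer than 8, and 8 lowered at most 5. Those 8, named after their values were seen, were idarubicin, staurosporine, valproic acid, sulindac, streptozotocin, cerivastatin, atorvastatin and simvastatin.

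Valproic acid changed 1212 genes and lowered 1 of the 8, Kif12 (-0.88 ± 0.12), with Nrep at 0.08 ± 0.20, Tm4sf4 at 0.03 ± 0.15 and Hao1 at -0.01 ± 0.17. The 3 statins, which inhibit cholesterol synthesis, lowered 2 or 3 of the 8 each. Nrep was called with all 3, at -2.06 ± 0.19 under cerivastatin, -0.94 ± 0.20 under atorvastatin and -0.80 ± 0.20 under simvastatin. Gna14 was called under cerivastatin (-2.91 ± 0.52) and simvastatin (-1.79 ± 0.43), whereas Hao1 was called under none of them, with values of -0.90 ± 0.28, -0.54 ± 0.14 and 0.23 ± 0.14. These calls were not compared by a test of their difference.

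Other exceptions split the genes in other ways. Idarubicin changed 1843 genes and lowered Gna14 (-1.78 ± 0.40), Tm4sf4, Qprt and Kif12, with Hao1 higher. Streptozotocin lowered Kif12 and Car14, with Nrep at -0.06 ± 0.20 and Hao1 at 0.61 ± 0.23. Cytochalasin B, which blocks actin assembly, lowered Gna14 by 3.88 on the log2 scale and 5 other genes of the 8, with Hao1 at -0.08 ± 0.14 and Tm4sf4 at -0.48 ± 0.13. TGF Beta-1 lowered 7, among them Nrep at -2.63 ± 0.31, with Gna14 at -0.65 ± 0.39. Fenofibrate, an agonist of the peroxisome proliferator receptor, lowered Gna14 alone (-0.85 ± 0.21), and both Tm4sf4 and Hao1 were at 0.53 ± 0.12.

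Where few genes changed, calls could miss falls of fair size. Daunorubicin had the most changed genes (172) of the compounds that lowered none of the 8, and its values ran from -0.51 for Kif12 to 0.33 for Car14. Paraquat had 1 changed gene and 0 of the 8 called, yet all 8 values were below zero, from -2.32 ± 0.50 for Gna14 to -0.76 ± 0.22 for Car14. Clofibrate lowered 0 of the 8 with or without the array that went against its label, and Nrep was at -0.11 ± 0.21 without it and at -0.78 ± 0.36 with it. Gemfibrozil lowered all 8 either way, with Nrep at -4.41 ± 0.37 without the array that went against its label and at -3.59 ± 0.71 with it.

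For 3 compounds the screen held a lower dose too, with doses that differ between compounds. Zidovudine at 14800 µM gave a Hao1 change of -3.64 ± 0.13, and at 1000 µM of -0.37 ± 0.12. Gna14 was at -4.18 ± 0.22 and -0.32 ± 0.24 with those doses. Colchicine, another microtubule poison, gave Hao1 values of -3.74 ± 0.17 at 2000 µM and -4.19 ± 0.16 at 1000 µM, and Nrep values of -2.95 ± 0.19 and -2.32 ± 0.21. Gentamicin at 2900 µM gave values from -0.58 to 0.00 over the 8 genes, and at 1000 µM from 0.23 to 0.60. The falls under zidovudine were thus seen at its higher dose, whereas those under colchicine were seen at both.

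Over the 125 compounds, the 28 pairs among the 8 genes had Pearson's r from 0.754 to 0.923 (median 0.861), whereas the median r of a member with the 14210 other genes was -0.12. These correlations are a description, since compounds share vehicle arrays. The genes most like Hao1 were Mbl2 (r = 0.933), the mannose-binding lectin of plasma, the bile acid transporter gene Slc10a2 (0.924) and Qprt (0.923). Those most like Qprt were Iyd (0.939), Kynu (0.932), which encodes kynureninase on the same route to NAD, and Hao1. Maob was most like Mylk (0.907), Qprt (0.899) and Arhgap24 (0.891), and Car14 most like Maob (0.886), Qprt (0.877) and Arhgap24 (0.855).

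Arhgap24, which encodes a GTPase-activating protein, was also the gene most like Gna14 (0.933), before the growth factor gene Fgf1 (0.899) and Slc25a23 (0.888), and most like Kif12 (0.902), before Pkia (0.888) and Tm4sf4 (0.880). Tm4sf4 was most like Igsf5 (0.919), Mbl2 (0.914) and Myrf (0.908), and Nrep most like Tm4sf4 (0.899), Sbk1 (0.888) and Mbl2 (0.886). Mbl2 was lowered by 85 compounds and Arhgap24 by 81, with 0 raising either.

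Counts over the 125 compounds varied widely among the other genes of the same pathways, and they were not tested against the 8, which were picked for high counts. Of 10 glyoxylate and peroxisomal oxidase genes, the median gene was lowered by 39 compounds, Hao2 by 75, and Grhpr, the glyoxylate reductase gene, by 0. Of 15 genes of NAD synthesis, the median was 26, with Kynu at 77 and both Nmnat1 and Nmnat2 at 0. Nampt, of the salvage route to NAD, was raised by 25 compounds and lowered by 0. Of 8 genes of monoamine metabolism, the median was 9.5, with Sult1a1, a phenol sulfotransferase gene, at 82 and Maoa, which encodes the other monoamine oxidase, at 31. Of 13 other carbonic anhydrase genes, the median was 0, with Car3 at 69. Some of these genes had low vehicle medians, such as Car1 (3.94), Car6 (3.97) and Car10 (3.90), where a fall could hardly be seen.

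Of 10 other G protein alpha subunits, the median was lowered by 0 compounds, Gnai1 by 39, and Gnaq and Gna11, of the Gq family itself, by 3 and 0. Receptors and effectors of Gq had a median of 26, with Agtr1a, the angiotensin receptor gene, at 64, whereas the purine receptor gene P2ry2 was raised by 63 compounds and lowered by 1. Both measured relatives of Tm4sf4, Tm4sf1 and Tm4sf20, were lowered by 0, and the median of 26 kinesin genes was 0 (Kifc3, 42). Tm4sf1 and Tm4sf20 had vehicle medians of 3.76 and 4.11, against 12.07 for Tm4sf4, so a fall of either could hardly be seen. The same held for some other genes of these lists, such as Gnao1 (3.77) and Kif18a (3.47). Of 11 genes of TGF beta signalling, the median was 6 and the highest was Tgfb2 at 32. Of 16 liver-enriched transcription factors, the median was 24.5, with Onecut2 at 59, Onecut1 at 56 and Hnf4a at 50, and Cebpb was raised by 56 compounds and lowered by 0.

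Chlorpromazine, an antipsychotic that lowered all 8 genes in the main screen, was run again on arrays that the choice of the genes did not use. In the repeat, 6 of the 8 genes were lower (limma, adjusted p of at most 0.05 over all genes), where 0.851% of all genes were called lower and 0.127% higher. Of the enzymes, Hao1 fell most clearly. Its lowest, median and highest log2 levels were 7.69, 7.97 and 8.76 on the 6 treated arrays, against 9.48, 9.66 and 10.03 on the 6 vehicle arrays, a change of -1.63 ± 0.18 (SE, adjusted p = 0.00101). No treated array of Hao1 reached the vehicle range.

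Maob was at 8.00, 8.79 and 9.61 on treated arrays, against 9.74, 10.28 and 10.61 on vehicle arrays, a change of -1.48 ± 0.24 (adjusted p = 0.0106). Qprt was at 7.85, 8.31 and 9.02 in treated cultures, against 9.03, 9.61 and 9.70 in vehicle cultures, a change of -1.14 ± 0.18 (adjusted p = 0.0107). Both pairs of ranges were apart, for Qprt by a narrow margin. Car14 overlapped, with 7.37, 7.82 and 8.78 on treated arrays, against 8.60, 9.12 and 9.25 on vehicle arrays, a change of -1.07 ± 0.23 (adjusted p = 0.042).

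Nrep was at 6.96, 7.92 and 9.03 on treated arrays, against 9.19, 9.56 and 9.93 on vehicle arrays, a change of -1.66 ± 0.27 (adjusted p = 0.012), with no overlap. Gna14 had the largest change, -1.99 ± 0.41 (adjusted p = 0.0337), with 5.76, 6.64 and 8.41 on treated arrays, against 7.74, 9.02 and 9.30 on vehicle arrays, and its ranges overlapped. Tm4sf4 and Kif12 were not called, with changes of -1.0 ± 0.26 (adjusted p = 0.114) and -0.75 ± 0.21 (adjusted p = 0.152). Replicate 6 was the highest treated array of all 8 genes, and for Tm4sf4 it stood at 12.30, against 12.13 on the vehicle array of that number.

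With the replicate number as a block, all 8 genes were called, where 3.50% of all genes were called lower, Tm4sf4 at an adjusted p of 0.0387 and Kif12 at 0.0123. All treated arrays were below all vehicle arrays for 4 of the 8 genes, and for 1.06% of all genes. Without replicate 2, 3 or 4, on the other hand, the number called fell to 1 each time, Hao1. The shares over all genes in those fits are not given here. The values at 1 d in the main screen, from 3 treated arrays at the same dose, were -1.72 ± 0.26 for Nrep, -2.42 ± 0.27 for Hao1 and -1.11 ± 0.11 for Kif12, beside -1.66, -1.63 and -0.75 in the repeat. The summed linear level of 11 hepatocyte markers ran from 36000 to 82300 on treated arrays and from 60500 to 87600 on vehicle arrays, and that of 7 endothelial markers from 241 to 419 on treated arrays and from 308 to 657 on vehicle arrays. The median sum of 6 Kupffer cell markers was higher on treated arrays, 2010 against 1060. The median sums of the cholangiocyte and the stellate cell and fibroblast markers were lower on treated arrays. Their part in the result was not tested.

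**Figure D2:**
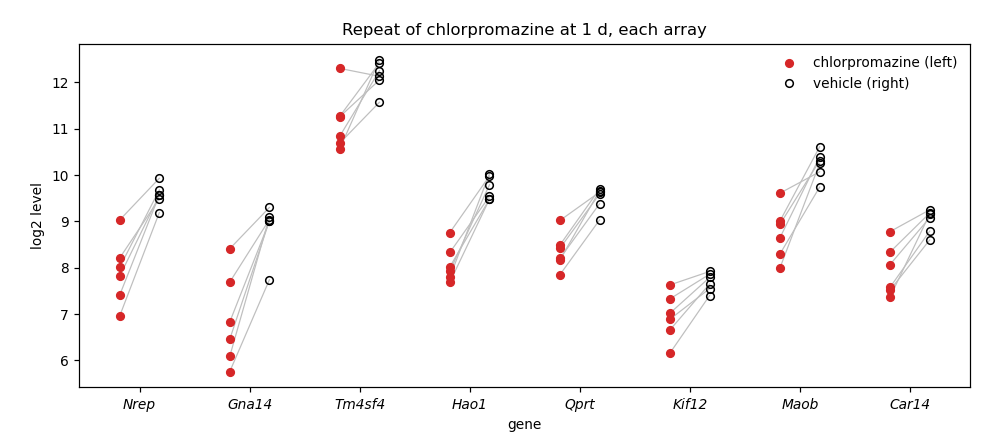
Log2 level of the 8 genes on each array of the chlorpromazine repeat at 1 d, with 6 treated arrays (43.9 µM) on the left and 6 vehicle arrays on the right of each panel and lines joining arrays with the same replicate number. All lines but the Tm4sf4 line of replicate 6 show a lower level in the treated culture.

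In the dose series, the 8 genes were lower under methapyrilene, an antihistamine that is toxic to the rat liver, and under omeprazole, another proton pump inhibitor. With all arrays, 20 of 144 pairs of gene and dose were called lower, where 1.50% of the pairs over all genes were called lower and 1.84% higher. These were all 8 genes under methapyrilene at 500 µM, Nrep and Kif12 under omeprazole at 365 µM, and Nrep, Gna14, Tm4sf4, Kif12 and Car14 under omeprazole at 400 and at 435 µM. With the replicate number as a block the count was 31, where 3.15% of the pairs over all genes were called lower. It was 0 without replicate 1 or without replicate 3, where 17 pairs each had an unadjusted p of at most 0.05 in limma. Without replicate 2 it was 48, where 3.81% of the pairs over all genes were called lower. The shares over all genes without replicate 1 or 3, called or at the unadjusted bound, are not given here.

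The replicate 2 arrays of allyl alcohol and methapyrilene, several of which went against their labels, set the error of this fit. Without the 6 of them, 47 pairs were called lower, where 3.84% of the pairs over all genes were called lower and 4.43% higher. With the replicate block in that fit, 50 pairs were called lower and 3 higher, where 5.96% of the pairs over all genes were called lower and 7.23% higher. The standard error of Nrep was 0.95 with all arrays and 0.23 to 0.25 without the 6. The counts below leave them out, a choice made after seeing the data.

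Under omeprazole, all 8 genes were lower at each dose, where 8.72%, 12.1% and 12.5% of all genes were called lower at 365, 400 and 435 µM. Nrep was at 6.49, 7.31 and 7.17 at 365 µM, at 6.05, 6.72 and 6.28 at 400 µM and at 5.67, 6.12 and 5.88 at 435 µM, against 9.72, 9.88 and 10.20 on the 3 vehicle arrays. Its change was -2.94 ± 0.23, -3.58 ± 0.23 and -4.04 ± 0.23 at the 3 doses. Tm4sf4 gave -2.36, -3.02 and -3.39 (SE 0.23 each), and Hao1 gave -1.21, -1.40 and -1.55 (SE 0.25 each). All 9 omeprazole arrays were below all 3 vehicle arrays for each of the 8 genes, and for 10.8% of all genes.

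Methapyrilene at 100 µM lowered 6 of the 8 (3.76% of all genes were called lower), and at 300 µM (12.8%) and 500 µM (18.6%) it lowered all 8. On replicates 1 and 3, Nrep was at 6.97 and 7.80 at 100 µM, at 5.25 and 5.94 at 300 µM and at 4.86 and 4.72 at 500 µM. Its changes were -2.55, -4.33 and -5.14 (SE 0.25 each), the last a 35.2-fold lower level. Gna14 and Qprt, the pair not called at 100 µM, were at -1.59 ± 0.54 (adjusted p = 0.0597) and -0.91 ± 0.34 (adjusted p = 0.0915) there, and at -4.62 ± 0.54 and -2.38 ± 0.34 at 500 µM. With the replicate block, both were called at 100 µM too, Gna14 at -1.46 ± 0.33 (adjusted p = 0.00101) and Qprt at -1.09 ± 0.11 (adjusted p = 7.12e-09), so that all 8 were, where 8.81% of all genes were called lower.

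The fall grew with the dose of methapyrilene for all 8 genes. The change per step of dose was -1.55 ± 0.14 for Tm4sf4, -1.52 ± 0.29 for Gna14, -1.39 ± 0.15 for Hao1, -1.29 ± 0.14 for Nrep and -1.01 ± 0.13 for Maob. It was smaller for Qprt (-0.73 ± 0.19), Kif12 (-0.72 ± 0.12) and Car14 (-0.62 ± 0.14). The adjusted p of these slopes ran from 4.77e-10 to 0.00387, and 11.4% of all genes had a slope called lower. The slopes of omeprazole, whose doses lay closer together, were -0.55 ± 0.11 for Nrep (adjusted p = 0.103) and -0.52 ± 0.12 for Tm4sf4 (adjusted p = 0.127), and 0 of 8 were called, where 0.00703% of all genes had an omeprazole slope called lower. At an unadjusted p of at most 0.05, 3 of these 8 slopes passed, both in limma and in the ordinary linear model. The share of all genes passing that bound is not given here. With the replicate block, the omeprazole slopes of Nrep (-0.55 ± 0.09, adjusted p = 0.00169) and Tm4sf4 (-0.52 ± 0.11, adjusted p = 0.0161) were called, where 0.535% of all genes had such a slope called lower. With the 6 arrays kept in, 0 of 48 slopes were called lower, where 0% of those over all genes were, and at an unadjusted p of at most 0.05 the number was 0 in both tests.

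The other 4 compounds of the series moved the genes little. Kif12 under clofibrate at 500 µM was the 1 pair called without the block, at -0.77 ± 0.19 (adjusted p = 0.02), after -0.27 at 125 µM and -0.48 at 250 µM, neither called, where 0.408% of all genes were called lower at 500 µM. Busulfan and carbon tetrachloride gave values from -0.56 to 0.11 over the 8 genes, none called without the block. With the replicate block, Kif12 was called again (adjusted p = 0.000547), Maob was lower under busulfan at 500 µM (-0.49 ± 0.14, adjusted p = 0.0492), and Qprt was higher under clofibrate at all 3 doses, at 0.40, 0.42 and 0.44 (SE 0.10 each, adjusted p from 0.00287 to 0.0227). The arrays labelled allyl alcohol, replicates 1 and 3, had Nrep at 9.84 and 9.90 at 20 µM, at 9.67 and 10.10 at 30 µM and at 9.42 and 10.12 at 40 µM. The replicate 2 arrays with those labels were at 7.18, 5.10 and 9.92.

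The summed level of the hepatocyte markers was 71400 to 79600 on methapyrilene arrays (replicates 1 and 3) and 62200 to 73800 on omeprazole arrays, against 76400 to 83000 on vehicle arrays, and that of 10 stellate cell and fibroblast markers 546 to 651 and 502 to 902, against 805 to 1310. The median sum of the Kupffer cell markers was higher, at 2120 and 995, against 765 on vehicle arrays. Those of the cholangiocyte and endothelial markers were lower under both compounds. Their part in the falls was not tested.

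**Figure D3:**
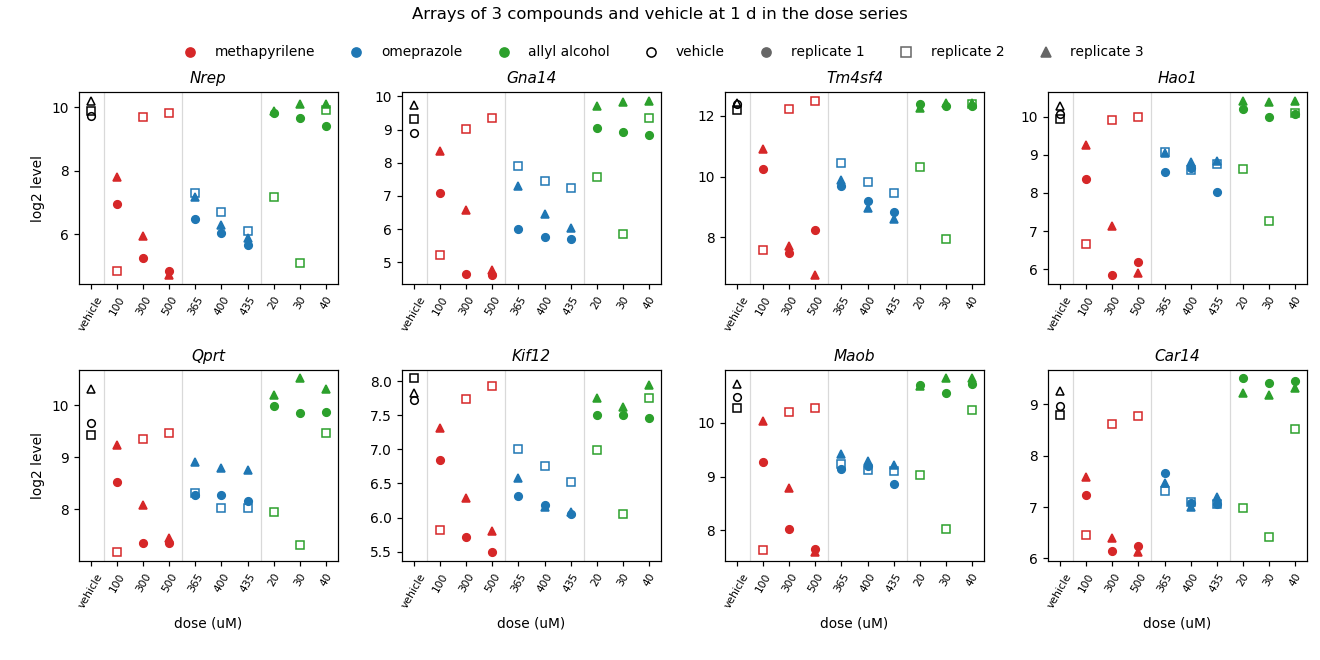
Log2 level of the 8 genes (panels) on each array of the dose series at 1 d for vehicle and for rising doses of methapyrilene, omeprazole and allyl alcohol, with open squares for replicate 2. Filled points fall with the dose of methapyrilene, and the open squares of methapyrilene at 300 and 500 µM and of allyl alcohol at 20 and 30 µM stand away from the filled points of their label.

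The difference between exposure times asks whether a gene was lowered more at 1 d than at 0.67 d, each against vehicle cultures of its own time. Of 1000 pairs of gene and compound, 9 differed (limma interaction, adjusted p of at most 0.05), 8 of them more lowered at 1 d and 1 more lowered at 0.67 d. Over all genes, 0.0604% of the pairs were lower at 1 d by this test and 0.0325% higher.

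Hao1 and Tm4sf4 had 3 of these pairs each. Under valdecoxib, an anti-inflammatory drug, Hao1 lay between 5.38 and 5.76 on 3 treated arrays at 1 d, against 9.99 to 10.47 on 7 vehicle arrays, and between 6.60 and 7.54 at 0.67 d, against 9.59 to 10.03. The change was -4.67 at 1 d and -2.84 at 0.67 d, a difference of -1.83 ± 0.22 (adjusted p = 0.000217). Tm4sf4 differed by -1.59 ± 0.27 under the same drug (adjusted p = 0.00637). Under pantoprazole Tm4sf4 was at -7.02 at 1 d and at -4.45 at 0.67 d, a difference of -2.56 ± 0.45 (adjusted p = 0.0251), and Qprt differed by -0.92 ± 0.19 (adjusted p = 0.0409).

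Under colchicine, Tm4sf4 and Hao1 were low at both times, and their differences between the times had opposite signs. Tm4sf4 lay between 9.49 and 10.41 on 3 treated arrays at 1 d, against 11.97 to 12.66 on 14 vehicle arrays, and between 7.60 and 7.81 at 0.67 d, against 11.01 to 12.44. Its change was -2.33 at 1 d and -4.02 at 0.67 d, a difference of 1.68 ± 0.27 (adjusted p = 0.000259), so it was less lowered at the later time. Hao1 was at -4.44 at 1 d and at -3.04 at 0.67 d under the same compound, a difference of -1.40 ± 0.26 (adjusted p = 0.00101).

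The remaining pairs were Hao1 and Car14 under 4,4'-methylenedianiline, with differences of -1.96 ± 0.41 (adjusted p = 0.0262) and -1.20 ± 0.28 (adjusted p = 0.0415), and Maob under venlafaxine, with -1.55 ± 0.28 (adjusted p = 0.031). Over all compounds, the median difference ran from -0.36 for Car14, more lowered at 1 d in 102 of 125 compounds, to 0.12 for Tm4sf4, more lowered at 1 d in 49. Nrep had a median difference of -0.01 and 0 called pairs, as had Gna14 (-0.12) and Kif12 (-0.06), in limma and in the ordinary linear model. At an unadjusted p of at most 0.05 in limma, 10 compounds passed for Nrep, 12 for Gna14 and 16 for Kif12. The number of called pairs was 3 without replicate 1 and 4 without replicate 2. The shares over all genes at that unadjusted bound and in those fits are not given here, so these counts have no background beside them.

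**Figure D4:**
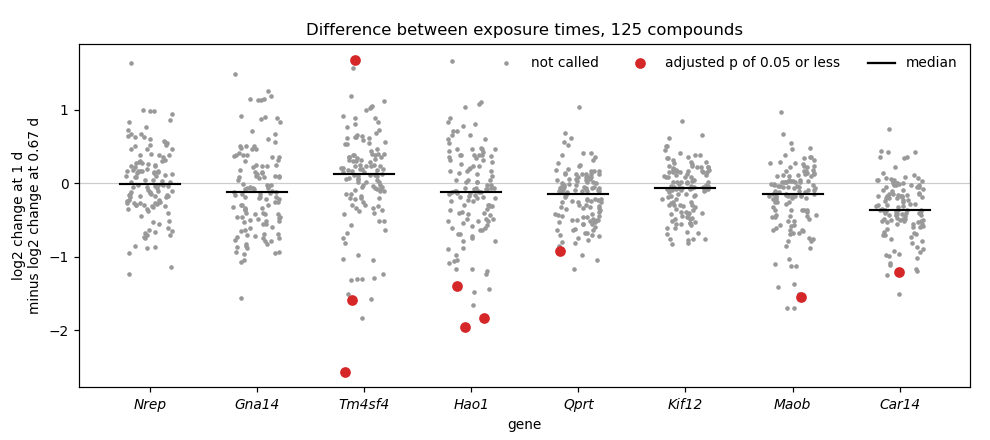
Change at 1 d minus change at 0.67 d on the log2 scale for each of 125 compounds (points), by gene, with a bar at the median and the 9 called pairs in red. Car14 lies mostly below zero, with a median of -0.36, and the other medians lie between -0.15 and 0.12.

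In vehicle cultures alone, all 8 genes were higher at 1 d than at 0.67 d (52 arrays each, 51 culture dates, limma with the culture date as a block), where 22.4% of all genes were called higher and 20.8% lower. The largest difference was that of Maob, whose lowest, median and highest log2 levels were 8.46, 10.06 and 10.91 at 1 d, against 8.20, 9.40 and 10.43 at 0.67 d, a difference of 0.63 ± 0.04 (SE, adjusted p = 1.03e-18). Tm4sf4 followed with 10.08, 12.32 and 12.94 at 1 d, against 9.37, 11.71 and 12.47 at 0.67 d, and 0.58 ± 0.05 (adjusted p = 1.12e-15). The ranges of both overlapped widely, and the call rests on pairs of arrays from the same culture date.

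The differences of the other genes were 0.56 ± 0.07 for Gna14, 0.54 ± 0.04 for Car14, 0.45 ± 0.04 for Kif12, 0.42 ± 0.04 for Qprt, 0.41 ± 0.05 for Hao1 and 0.34 ± 0.04 for Nrep, with adjusted p from 1.83e-18 to 3.2e-09. Within each of 15 sets of controls, all 8 genes were higher at 1 d, except Hao1 in the 1 set with 1 array at each time, where it was lower by 0.10. Their neighbours in the pathways went both ways, with 5 of 15 genes of NAD synthesis higher and 5 lower, and 2 of 10 peroxisomal oxidase genes higher and 6 lower. In the other lists more genes were higher than lower, with 7 and 1 of 13 Gq receptors and effectors and 6 and 0 of 11 TGF beta genes. The numbers were 4 and 1 of 8 for monoamine metabolism and 4 and 1 of 10 for G protein alpha subunits. They were 3 and 1 of 13 for carbonic anhydrases and 5 and 4 of 26 for kinesins. The hepatocyte markers were lower at 1 d in 10 of 11 genes, at a median of -0.09.

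**Figure D5:**
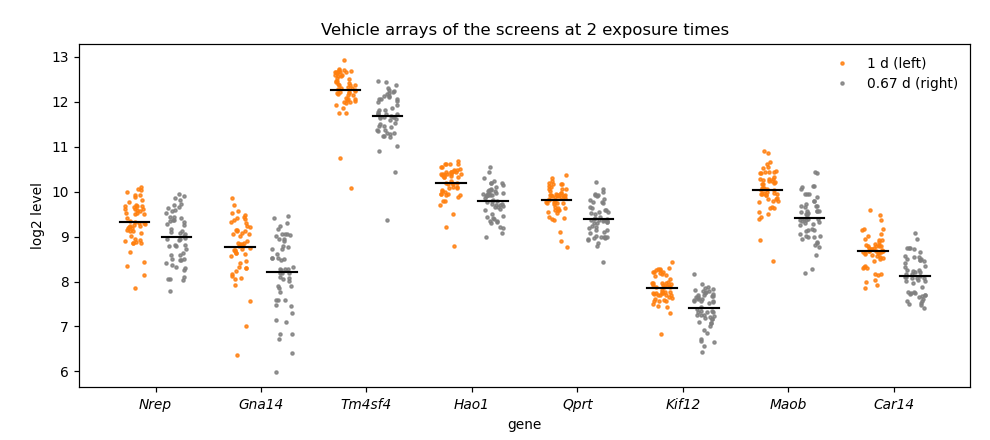
Log2 level of the 8 genes on vehicle arrays, 52 at 1 d (left of each pair) and 52 at 0.67 d (right), with the mean as a bar. The 1 d points sit higher for each gene by 0.34 to 0.63 on the log2 scale, and the ranges overlap.

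The vehicle cultures also differed among themselves in these genes. Over 51 culture dates, each value taken as its difference from the mean of its time, the SD ran from 0.31 for Hao1 to 0.69 for Gna14, whose means ran from -1.97 to 1.16. All 28 pairs of the 8 genes were correlated over culture dates (permutation test with 100000 resamples, two-sided, adjusted over the 28 pairs). Pearson's r ran from 0.316 (Hao1 and Car14, adjusted p = 0.0229) to 0.839 (Tm4sf4 and Maob), with a median of 0.621, and Spearman's rank correlation from 0.305 (adjusted p = 0.0299) to 0.825. The smallest p that the permutations can give, 1e-05, was reached by some pairs.

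Without the 2 culture dates farthest from the median, r ran from 0.349 to 0.799, and within sets of controls from 0.239 to 0.816, with 27 of 28 pairs called. The r of Tm4sf4 with the 14210 other genes had a median of -0.0116 and lay between -0.561 and 0.527 for the middle part from the percentile 5 to the percentile 95, and that of Hao1 between -0.384 and 0.416. The median r of the members' pairs, 0.621, lay above the percentile 95 of each of the 8 genes, which ran from 0.416 to 0.559. Some pairs, such as Hao1 and Car14 at 0.316, lay within those ranges. This was not compared by a test. The levels of the 8 genes were thus also correlated between cultures that received no compound.

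Gna14, Car14 and Qprt each have another probe set, and its count differed most for Qprt. The other probe set of Gna14 was lowered by 82 compounds and that of Car14 by 69, beside 84 and 83, whereas that of Qprt was lowered by 13, with a mean change of -0.30, beside 85 and -1.17. The remaining 5 genes have 1 probe set each.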

How the data were processed

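The deposited table held 31099 probe sets on 939 arrays as log2 values, which the submitters' processing notes credit to RMA and the study's methods to frma; which of them made this table, and its version, is not given in the sources used here. A column with no sample was found 0 times. Genes were named through the platform annotation and RefSeq, with 1 symbol for 20832 probe sets, several for 436 and none for 9831. Of the probe sets of a gene, the one with the highest mean was used, and 14218 genes were tested.

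Tests used limma 3.58.1 in R 4.3.3 (lmFit and eBayes, with Benjamini-Hochberg adjustment over all genes), after the fits were tested on simulated data. The screens were fitted per compound with exposure time as a factor and called at an adjusted p of 0.01 and 1.5-fold, other comparisons at an adjusted p of 0.05. Compounds with 2 doses in the screen were fitted at the higher dose. No label says that replicates came from separate animals, so p-values measure the spread between these cultures, which may be technical.

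The 8 genes, the gene lists and the tests were chosen with earlier results of these data known. The text names the 8 genes and the 3 genes most correlated with each. Of each list of a pathway, gene family or transcription factors it names the gene lowered by most compounds. For some lists it also names genes lowered by the fewest. Per gene it names compounds from among the 3 with the lowest and the 3 with the highest change. Other names were chosen after their values were seen. Replicate numbers pair the arrays of the dose series (53 of 54 same-numbered pairs of deviations correlated above 0.1, mean 0.557, and 55 of 57 arrays shared the hybridization day of the vehicle array with their number) and of the chlorpromazine repeat (6 of 6 pairs, mean 0.621, 12 of 12 arrays). The alternatives tried were other scalings, probe set rules, filters, controls, single exposure times, a replicate block and leaving out replicates.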

Additional observations from a re-analysis of the deposited data

Results flagged for a closer look

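Single vehicle arrays stood apart from the others of their set and time for some genes. In control set F at 0.67 d, 1 of 5 arrays had Tm4sf4 at 9.37, with the others at 11.53 to 11.86, and Kif12 at 6.43, with the others at 7.33 to 7.59. In the same set at 1 d, 1 of 5 arrays had Tm4sf4 at 10.08, with the others at 11.87 to 12.44. In set A at 1 d, the highest of 6 arrays had Qprt at 10.1, with the others at 9.87 to 9.94, and the lowest had Kif12 at 7.49, with the others at 7.75 to 7.90. In set G at 0.67 d, the lowest of 4 arrays had Car14 at 7.71, with the others at 8.16 to 8.23. In the chlorpromazine repeat, the vehicle array of replicate 1 had Gna14 at 7.74, with the others at 9.0 to 9.3. These are 7 of 112 such checks, of which chance gives about 5%.

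The change at 1 d differed from the change at 0.67 d in 9 pairs of gene and compound. The difference was 1.68 for Tm4sf4 under colchicine, less lowered at 1 d, and negative, more lowered at 1 d, for the other 8. These were Tm4sf4 under pantoprazole (-2.56) and valdecoxib (-1.59), Hao1 under 4,4'-methylenedianiline (-1.96), colchicine (-1.40) and valdecoxib (-1.83), Qprt under pantoprazole (-0.92), Maob under venlafaxine (-1.55) and Car14 under 4,4'-methylenedianiline (-1.20).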

How the results depend on the processing

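The number of compounds lowering a gene stayed within 1.5 times its value under all alternatives but 4. At 0.67 d alone, Kif12 was lowered by 55, Maob by 54 and Car14 by 40 compounds, and the other probe set of Qprt was lowered by 13. At 1 d alone, Kif12 was lowered by 65, Maob by 64 and Car14 by 67 compounds. Either time alone has fewer arrays than both together. Replicate numbers paired the arrays of the screens only in part (580 of 967 same-numbered pairs of deviations correlated above 0.1). The mean was 0.196 for the same number and -0.0544 for other numbers, and in 45 of 125 compounds every same-numbered pair was above 0.1. With the replicate block the genes were lowered by 85 to 90 compounds, where the fit without it gave 78 to 88. Of the pairs that differed between exposure times, 9 in all, 4 were called with the ordinary linear model test, 26 with the replicate block (24 more lowered at 1 d, where 0.154% of the pairs over all genes were, and 2 less, where 0.128% were) and 3 to 9 without 1 replicate number. For the ordinary test and the fits without 1 replicate number, the share over all genes is not given here.

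In the chlorpromazine repeat, where numbers pair the arrays, 6 genes were called, 8 with the block, 1 with the ordinary test and 1 to 7 without 1 replicate. For the ordinary test and most fits without 1 replicate, here and in the dose series, the share over all genes is not given. In the dose series, 20 pairs were called, 31 with the replicate block, 0 to 48 without 1 replicate, 47 without the 6 replicate 2 arrays of allyl alcohol and methapyrilene and 50 with the block and without them. The slopes called were 0 with all arrays, 0 to 8 without 1 replicate, 8 without the 6 arrays and 10 with the block and without them. With 3 arrays a dose, 1 array decides these counts. Under the replicate block with all arrays, 0 slopes were called too. Hao1 in the vehicle cultures of 1 control set was at -0.10, from 1 array at each time. All other directions held, and the causes were not tested.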
